A study of Mus musculus with 4 samples.

Results

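Transcripts of 10 neutrophil granule proteins were followed by the stage of maturation at which their products are packed: Mpo, Elane, Prtn3 and Ctsg of the primary granules, Ngp, Ltf, Camp, Lcn2 and Mmp8 of the secondary granules, and Mmp9 of the tertiary granules. They were taken by symbol, and all 10 were found among the 31053 features of the count matrices. The mice were C57BL/6J, 6 to 8 weeks old, and all received 250 µg of rabbit IgG by injection 3 times a week for 2 weeks. In EBA mice (a model of epidermolysis bullosa acquisita, an autoimmune blistering disease) this was vWFA2-COL7 IgG, affinity purified on an antigen of collagen VII, which anchors epidermis to dermis. In IgG mice it was control rabbit IgG. Cells of 3 mice per cohort were pooled, and blood and ear skin gave 1 droplet library each, 4 libraries in all. With 1 library a group no test between groups is possible. The intervals below cover counting error only, so a difference between cohorts cannot be told apart from one between library preparations, nor skin from its enzymatic digestion.

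Neutrophils mature in the bone marrow and make their granule proteins in waves. The proteases and peroxidase of the primary (azurophil) granules are transcribed in promyelocytes, the secondary (specific) granule proteins mainly in myelocytes and metamyelocytes, and the gelatinase of the tertiary granules later. The proteins stay packed after their transcripts are gone, so transcripts mark the stage of a cell and not what its granules hold.

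Kept barcodes had 200 or more genes, at most 10% mitochondrial UMIs (unique molecular identifiers, 1 per captured transcript) and no high doublet score: 4349 in blood and 5106 in skin of IgG mice, 3325 in blood and 4134 in skin of EBA mice. They were clustered with the members and other granule genes left out of the variable genes, and clusters were named "X-like" from marker lists. Neutrophil-like cells numbered 457 in IgG blood, 879 in EBA blood and 884 in EBA skin, and the 4 of IgG skin were not used. Different clusters held them: cluster 9 held 420 of those in IgG blood, clusters 2 and 3 held 360 and 510 of those in EBA blood, and cluster 33 held 880 of those in EBA skin. Cluster 33 was led by Cd14, Ccrl2 and Cxcl3 against all other barcodes, and its median depth was 0.332 of its library's. It was named after its values were seen, since all 9 neutrophil markers were detected and Retnlg, S100a9, S100a8 and Hdc were among its 10 leading genes within EBA skin. The 9 markers summed to 117160.0 CPM (the share of all UMIs, scaled to the same total in every library) in IgG blood, 384525 CPM in EBA blood and 164443 CPM in EBA skin. Median depth per cell was 2410, 9238 and 3019 UMIs in the same order. Platelet transcripts (a UMI of Pf4 or Ppbp) were found in 83.8%, 85.6% and 2.71% of these cells. Pairs of libraries shared 5 to 9 kept barcodes.

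Sequences upstream of 5 members are shown because Camp, Ngp and Ltf, whose levels moved together, lie within 1195389 bp of chromosome 9, and Prtn3 and Elane within 13740 bp of chromosome 10. They are RefSeq promoter sequences of GRCm38.p6, 5′ to 3′ on the gene's strand, trimmed to leave out exons. Capitals mark TTGCNNAA (core of the C/EBP motif) or GAGGAA (core of the PU.1 motif) on either strand, and no marked matches overlap.
Prtn3 (chr10:79879417-79879613, plus strand): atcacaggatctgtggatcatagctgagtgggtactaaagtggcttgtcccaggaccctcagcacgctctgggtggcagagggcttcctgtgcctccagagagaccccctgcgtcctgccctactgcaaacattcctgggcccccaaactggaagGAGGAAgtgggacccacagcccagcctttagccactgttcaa
Elane (chr10:79886062-79886246, plus strand): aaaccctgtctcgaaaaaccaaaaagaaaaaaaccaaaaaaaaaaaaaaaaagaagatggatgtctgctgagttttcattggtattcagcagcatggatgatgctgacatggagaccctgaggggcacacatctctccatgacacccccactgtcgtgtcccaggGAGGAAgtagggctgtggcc
Ngp (chr9:110419558-110419746, plus strand): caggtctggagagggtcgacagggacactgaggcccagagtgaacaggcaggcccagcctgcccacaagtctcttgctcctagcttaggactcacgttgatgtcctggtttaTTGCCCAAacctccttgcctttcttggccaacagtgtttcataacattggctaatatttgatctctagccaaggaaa
Ltf (chr9:111019042-111019270, plus strand): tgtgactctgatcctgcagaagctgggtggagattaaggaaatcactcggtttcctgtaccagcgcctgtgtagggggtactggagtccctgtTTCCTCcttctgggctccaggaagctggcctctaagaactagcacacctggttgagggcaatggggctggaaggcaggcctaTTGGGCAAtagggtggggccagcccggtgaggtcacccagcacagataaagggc
Camp (chr9:109849618-109849706, minus strand): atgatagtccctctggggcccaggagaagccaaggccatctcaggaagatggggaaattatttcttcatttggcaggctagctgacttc
The Prtn3 stretch lies inside the GENCODE gene (chr10:79874476-79883174), which has an earlier start, and the other 4 lie just upstream of theirs. The PU.1 letters began 95 bases before the RefSeq start in Prtn3, 85 in Elane and 157 in Ltf. The C/EBP letters began 138 bases before it in Ngp and 75 in Ltf, and the Camp stretch held neither. In windows of 300 bases, available for every member but Mmp9, the C/EBP letters were in 4 of 9 (Ngp, Ltf, Lcn2 and Mmp8) and in 10.8% of all 32851 promoters. The PU.1 letters were in 7 of 9, including the 4 primary genes, and in 28.3% of all promoters. The core AACNG of Myb, on either strand, was in 9 of 9 and in 80.3% of all promoters. These are matches of letters and show no binding.

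Primary granule transcripts were nearly absent from neutrophil-like cells. Mpo, for myeloperoxidase, had 0 UMIs in IgG blood, 1 in EBA blood and 1 in EBA skin. Elane, for neutrophil elastase, had 0, 3 and 0 UMIs in the same order, and so did Ctsg, for cathepsin G (0, 3 and 0). A count of 0 allows up to 2.45 CPM in IgG blood and 0.880 CPM in EBA skin (3 counts). Prtn3, for proteinase 3, stood at 4.91 CPM (1.801 to 10.7) from 6 UMIs in IgG blood, 11.7 CPM (9.62 to 14.1) from 112 in EBA blood and 2.05 CPM (0.825 to 4.23) from 7 in EBA skin, with 95% Poisson intervals. Its intervals overlapped in all but 1 pairing, EBA blood lying above EBA skin.

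In blood, all 5 secondary granule transcripts were higher in EBA mice. Ngp, a cathelicidin-related granule protein, stood at 4.09 CPM (1.33 to 9.54) from 5 UMIs in IgG blood and 12819 CPM (12747 to 12890.5) in EBA blood. Ltf, for the iron-binding lactoferrin, stood at 0.818 CPM from 1 UMI in IgG blood and 2959.8 CPM in EBA blood. Camp, for the antimicrobial cathelicidin, stood at 1.64 CPM from 2 UMIs and 7735 CPM. Thus Ngp, Ltf and Camp were close to undetected in IgG blood and abundant in EBA blood. Lcn2, for the siderophore-binding lipocalin 2, was already present in IgG blood at 818 CPM (768 to 870.2) and stood at 13716 CPM (13642 to 13791) in EBA blood. Mmp8, the neutrophil collagenase, stood at 430.2 CPM (394 to 469) and 1969 CPM (1941 to 1998). Mmp9, the gelatinase of tertiary granules, stood at 2367 CPM (2282 to 2455) in IgG blood and 1596 CPM (1571 to 1622) in EBA blood, lower in EBA as CPM but not relative to the median gene.

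The ratio of EBA to IgG blood, with exact conditional 95% intervals, was 3134 (1343 to 9654) for Ngp, 3619 (649 to 142938) for Ltf and 4728 (1309 to 39044) for Camp. The wide intervals come from the few UMIs in IgG blood. It was 16.8 (15.8 to 17.9) for Lcn2, 4.58 (4.20 to 5.002) for Mmp8, 2.38 (1.06 to 6.62) for Prtn3 and 0.674 (0.648 to 0.702) for Mmp9. A gene counted as measured when both libraries together held at least 10 UMIs and the higher level reached 10 CPM, and a measured gene was called at a ratio of at least 2, or at most 0.5, where the interval left out 1. Of 7 measured members 6 were called higher and 0 lower, against 4.41% of 6006 measured genes higher and 53.6% lower. The median log2 ratio of all genes was -1.08; relative to it the same number of members, 6, was higher (14.6% of all genes were higher and 11.9% lower), and Mmp9 changed direction, to 1.43. Without barcodes with Pf4 or Ppbp UMIs, Prtn3 fell below the minimum, so its log2 ratio of -1.16 there is not read as a direction.

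Other secondary granule genes differed in the same direction. Of 12, all measured, 9 were higher and 0 lower in EBA blood, with a median log2 ratio of 2.36 against -1.08 over all genes. Chil3, a chitinase-like protein, stood at 5.73 CPM in IgG and 1829 CPM in EBA blood, a ratio of 319 (155 to 794). Cd177, a neutrophil surface protein, stood at 32.7 and 570.3 CPM, a ratio of 17.4 (12.8 to 24.4). Of 12 other genes on the list set for primary granules 7 were measured, 4 higher and 2 lower (median 1.75). Serpinb1a on that list, an inhibitor of granule proteases and not itself one, was at 25.4 (16.8 to 40.6). Of 8 tertiary and secretory genes 7 were measured, 1 higher and 1 lower (median -0.23). The lower one was Slc11a1, a metal transporter, at 0.267 (0.228 to 0.313), which was not called relative to the median gene. Of 9 regulators of granulocyte genes 7 were measured, 1 higher and 4 lower. Csf3r, the G-CSF receptor, was at 0.175 (0.169 to 0.182) and Cebpa at 0.129 (0.0927 to 0.180). These counts stand against 4.41% of all genes higher and 53.6% lower, and the share of regulators lower is near the latter. Relative to the median gene the primary list had 5 higher and 0 lower, the secondary list 12 and 0, the tertiary and secretory list 3 and 0 and the regulators 1 and 2.

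**Figure D1:**
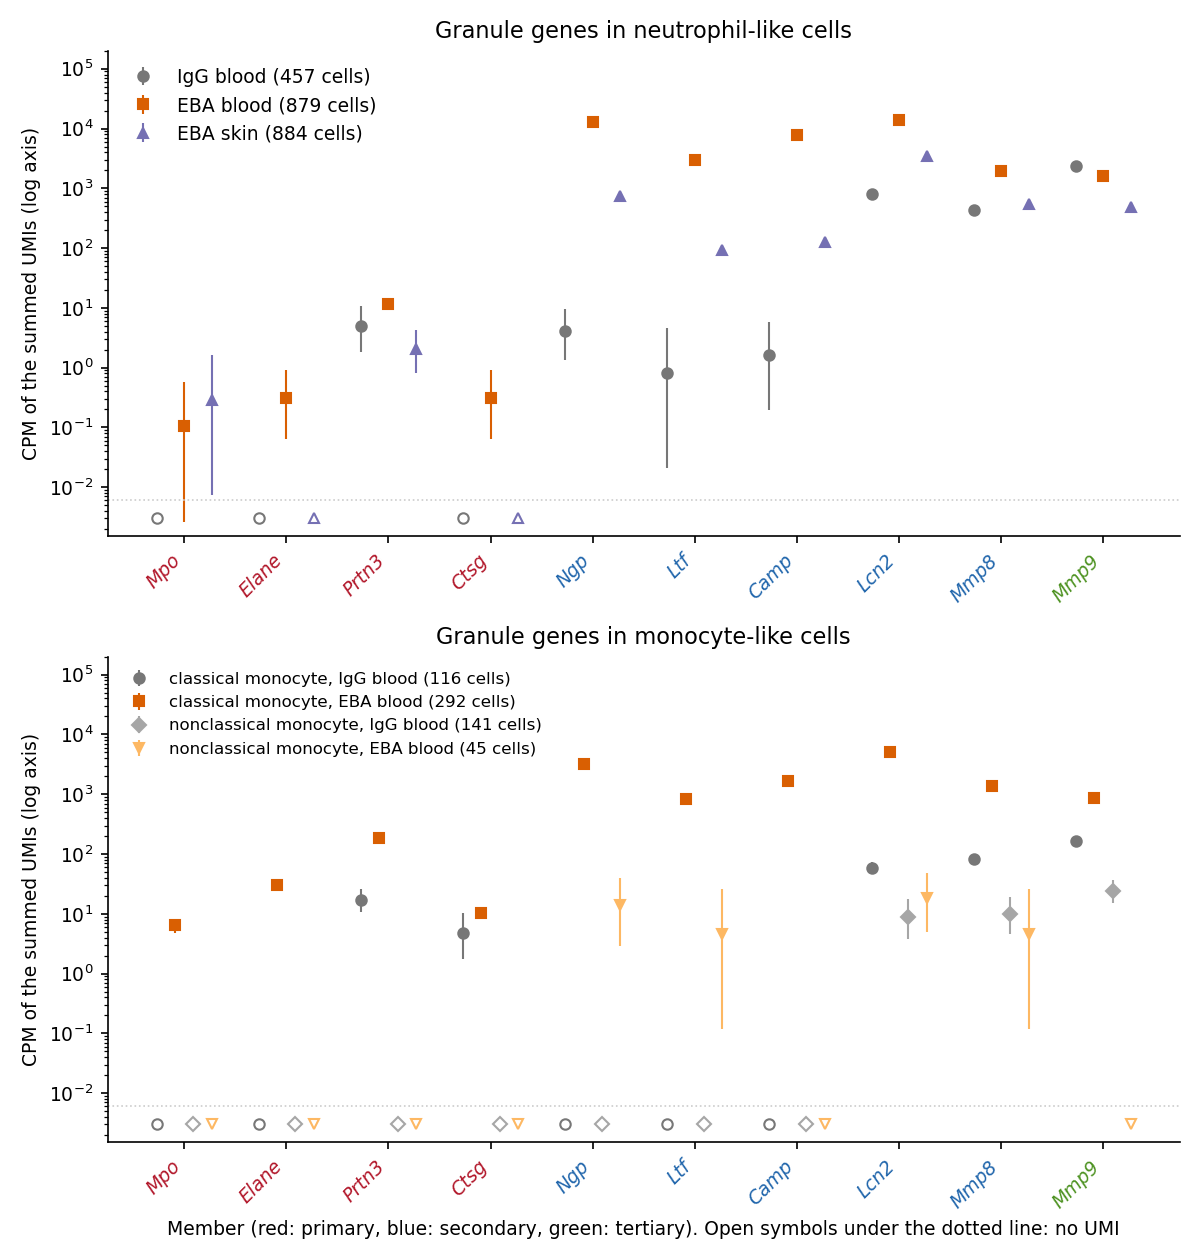
Level of each granule gene (CPM of the summed UMIs, log axis) in neutrophil-like cells (upper panel) and monocyte-like cells (lower panel), 1 symbol per library with its 95% Poisson interval; open symbols under the dotted line had no UMI. In neutrophil-like cells Ngp, Ltf and Camp lie between 0.818 and 4.09 CPM in IgG blood and between 2959.8 and 12819 CPM in EBA blood.

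Shares of cells with a UMI of a secondary gene were also highest in EBA blood at equal depth. Ngp was found in 0.875% of neutrophil-like cells in IgG blood, 77.6% in EBA blood and 26.5% in EBA skin. With every cell thinned to 500 UMIs, which none fell short of, the shares were 0.219%, 55.9% (52.5% to 59.2%) and 10.2% (8.27% to 12.4%), with exact Clopper-Pearson intervals. Camp was found in 0.438%, 57.9% and 4.19% of cells, or 0.219%, 38.8% and 1.47% after thinning. For Ltf the shares were 0.219%, 49.8% and 3.28%, or 0%, 33.8% and 0.679%. Most cells of EBA blood and skin therefore had Lcn2 while far fewer in skin had Camp or Ltf: Lcn2 was in 54.5%, 98.1% and 85.2%, or 24.9%, 93.2% and 60.1% after thinning. Mmp8 was in 49.9%, 92.0% and 46.8%, or 15.97%, 51.0% and 17.2%. Mmp9 was most widespread in IgG blood at equal depth, in 96.3%, 94.7% and 58.0%, or 66.5% (62.0% to 70.8%), 50.1% (46.7% to 53.4%) and 21.6% after thinning.

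Shares in B cell-like cells of blood and keratinocyte-like cells of skin were set beside these. B cell-like cells of EBA blood (median 3683 UMIs) had Ngp in 4.63%, Camp in 1.88%, Ltf in 1.00% and Lcn2 in 5.51%, and no member in more than 0.751% after thinning. Those of IgG blood (median 3431 UMIs) had at most 0.193%, for Mmp9. Keratinocyte-like cells of EBA skin were deeper (median 39220.5 UMIs) and had Lcn2 in 30.9% and Mmp9 in 8.22%, or 1.34% and 1.51% after thinning. Their levels were 49.0 CPM of Lcn2 and 31.7 CPM of Mmp9. Erythroid-like cells of the same library held 1.998 CPM (0.242 to 7.22) of Lcn2 and 0 UMIs of Mmp9, which allows up to 2.997 CPM. The part of free RNA or of droplets with more than 1 cell in the keratinocyte-like levels was not tested. After thinning, the intervals of Ngp, Ltf, Camp, Lcn2, Mmp8 and Mmp9 in EBA blood neutrophil-like cells lay above those of B cell-like cells. In EBA skin, against keratinocyte-like cells, those of Ngp, Camp, Lcn2, Mmp8 and Mmp9 did, and Ltf at 0.679% (0.249% to 1.47%) did not. Prtn3 at 0.910% in EBA blood also overlapped the B cell-like share.

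**Figure D2:**
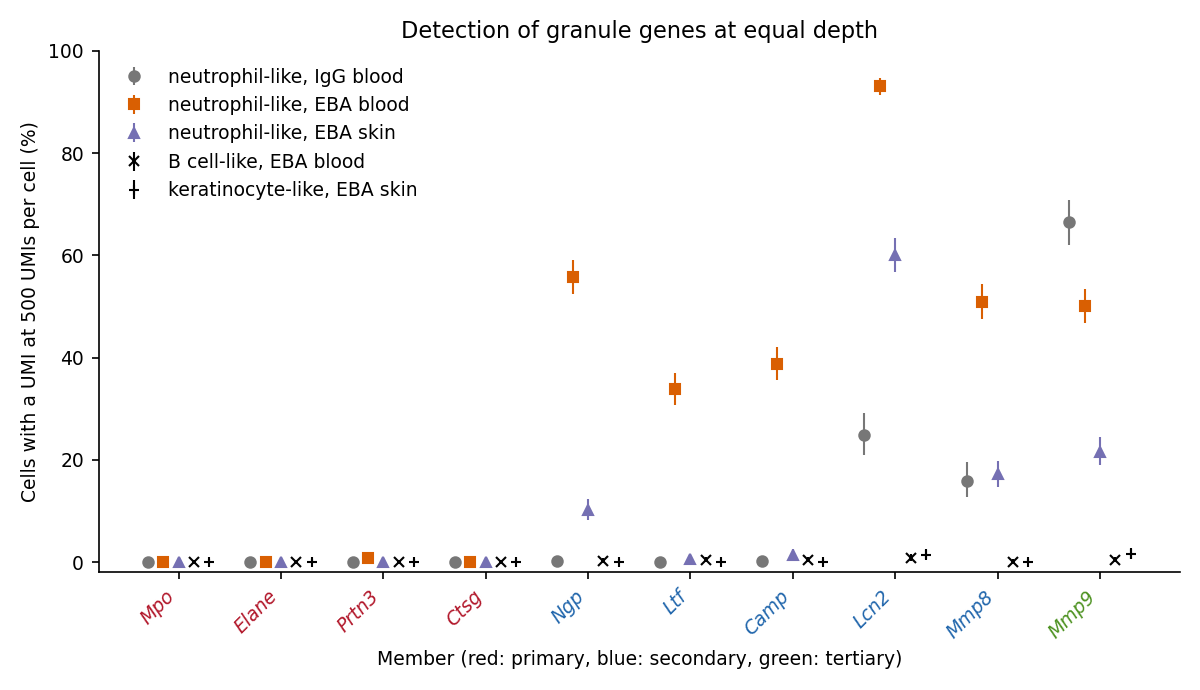
Share of cells (%) with at least 1 UMI of each granule gene when every cell was thinned to 500 UMIs, with exact 95% Clopper-Pearson intervals. Among neutrophil-like cells, Lcn2 is found in 93.2% in EBA blood and Mmp9 in 66.5% in IgG blood.

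Neutrophil-like cells of EBA skin had less of every measured member than those of EBA blood. Ngp stood at 754 CPM (725 to 784) in skin, Ltf at 91.2 CPM (81.4 to 102), Camp at 126 CPM (114 to 138) and Lcn2 at 3412 CPM (3351 to 3475). Mmp8 stood at 540.5 CPM (516 to 566) and Mmp9 at 482 CPM (459 to 506). The ratios to EBA blood were 0.0588 for Ngp, 0.0308 for Ltf, 0.0162 for Camp, 0.249 for Lcn2, 0.274 for Mmp8, 0.302 for Mmp9 and 0.176 (0.0691 to 0.374) for Prtn3. All 7 measured members were called lower, against 22.3% of 5378 genes lower and 32.8% higher (median log2 ratio 0.25). Scaled to that median, 7 of 7 were again lower (26.6% of all genes lower, 27.3% higher). The intervals for Ngp, Ltf and Camp lay entirely below those for Lcn2, Mmp8 and Mmp9.

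Against IgG blood, the same skin cells had more Ngp, Ltf, Camp and Lcn2 and less Mmp9. The ratio was 184 (78.9 to 568) for Ngp, 112 (19.9 to 4418) for Ltf, 76.7 (21.1 to 636) for Camp and 4.17 (3.91 to 4.45) for Lcn2. Mmp8 was at 1.26 (1.14 to 1.39) and Mmp9 at 0.204 (0.192 to 0.216). Of 6 measured members 4 were higher and 1 lower, against 14.4% of 6308 genes higher and 46.8% lower (median log2 ratio -0.89). Scaled to the median gene, Mmp8 at 2.34 made 5 higher, against 26.8% higher and 24.8% lower. These comparisons share libraries with the one in blood.

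A few skin cells held most of the Ltf and Camp. The 9 cells with most UMIs of a gene, 1% of the 884, held 92.3% of the Ltf, 90.7% of the Camp and 46.0% of the Ngp UMIs, but 8.62% of the Lcn2 UMIs. In EBA blood the top 1% held 10.7% of Ltf, 12.7% of Camp and 9.08% of Ngp. Without those cells the skin level of Ltf was 7.18 CPM and of Camp 12.1 CPM, whereas Ngp stood at 418 CPM and Lcn2 at 3232 CPM. Against IgG blood Ltf was then below the minimum, and Camp had 0 UMIs left in IgG blood, which gives a log2 ratio of at least 2.29 against 3 counts; the value with all cells, 6.26, rests on 2 UMIs there.

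The lists of other granule genes split in skin. Against EBA blood, 11 of 12 other secondary genes were lower and 0 higher (median log2 ratio -2.10 against 0.25 over all genes), with Chil3 at 0.0847 (0.0775 to 0.0923) and Anxa1, annexin A1, at 0.0821 (0.0759 to 0.0886). The primary list had 3 higher and 3 lower of 6: Srgn, the granule proteoglycan serglycin, was at 6.33 (6.21 to 6.46), Lyz2, a lysozyme, at 0.0692 (0.0661 to 0.0723) and Serpinb1a at 0.0122 (0.00732 to 0.0190). The tertiary and secretory list had 4 higher and 1 lower of 7 (median 1.17), with Slc11a1 at 7.47 (6.73 to 8.31). Of 7 regulators 3 were higher, including Cebpb at 6.79 (6.60 to 6.98) and Runx1 at 7.95 (6.73 to 9.43), and 2 lower. Over all genes 32.8% were higher and 22.3% lower in this comparison, so the counts of the regulators are near that background. Relative to the median gene the primary list had 2 higher and 3 lower and the secondary list 0 and 11. The tertiary and secretory list then had 3 and 1 and the regulators 3 and 2, against 27.3% of all genes higher and 26.6% lower. Against IgG blood, where 14.4% of all genes were higher and 46.8% lower, the secondary list had 5 higher and 3 lower of 11, and relative to the median gene 5 and 0. Fpr1, the formyl peptide receptor, was at 8.32 (6.93 to 10.1) there, and Ctsc, which activates granule proteases, at 18.6 (8.44 to 51.0).

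**Figure D3:**
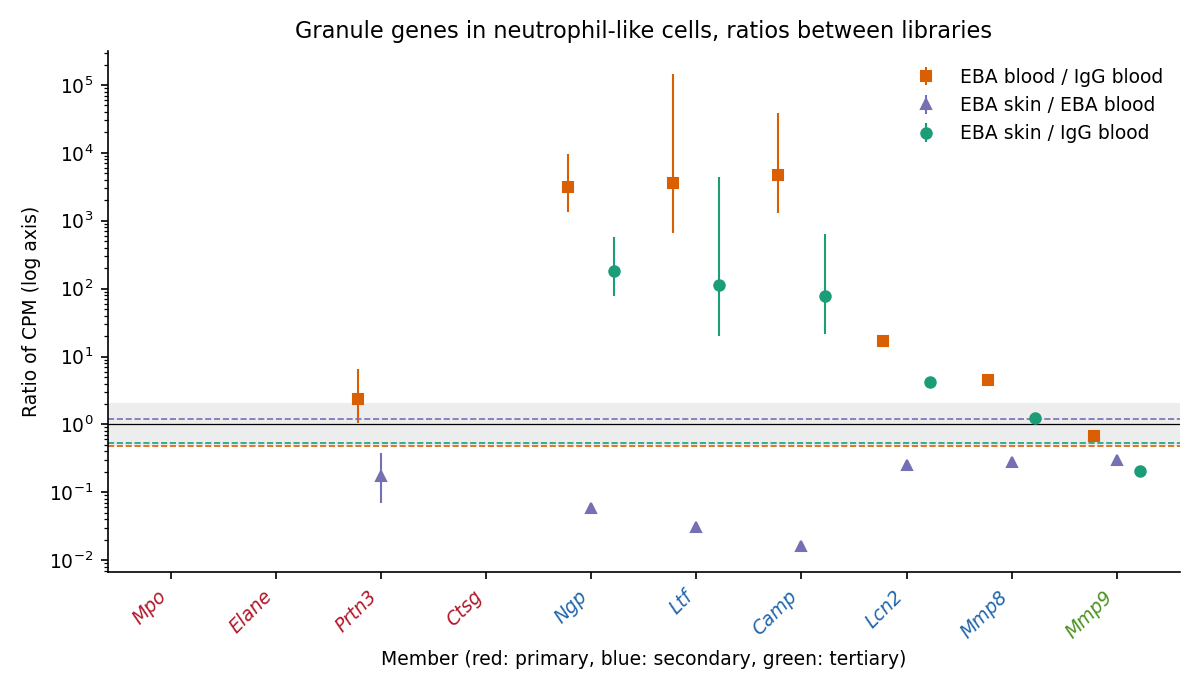
Ratio of CPM (log axis) between neutrophil-like cells of 2 libraries for each measured granule gene, with exact conditional 95% intervals; dashed lines give the median ratio of all measured genes and the grey band spans 0.5 to 2. The 7 ratios of EBA skin to EBA blood lie below the band, between 0.0162 and 0.302.

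Within EBA blood the cells differed most in Ngp, Ltf and Camp. The median cell held 14 UMIs of Ngp, 0 of Ltf and 1 of Camp, and the highest cell 1516, 381 and 1562. Cluster 2 had 24421 CPM of Ngp and cluster 3 had 5059 CPM. For Camp the levels were 15752 and 2369 CPM, for Ltf 5719 and 1114 CPM and for Lcn2 19805 and 9655 CPM. These 4 of 7 measured members were higher in cluster 2 and 0 lower, with ratios from 2.05 (Lcn2) to 6.65 (Camp), against 3.7% of 4778 genes higher and 19.4% lower; relative to the median gene it was also 4, against 7.45% and 11.9%. Mmp9 at 1.01 (0.977 to 1.04) and Prtn3 at 1.198 (0.809 to 1.77) were not called, nor was Mmp8 at 0.819 (0.794 to 0.843), which turned to 1.06 relative to the median gene. Camp, Ngp, Ltf and Lcn2 are among the leading genes of cluster 2 although they were not used to build it. A UMI of Pf4 or Ppbp was found in 65.6% of cells of cluster 2 and 99.6% of cluster 3, and its part in the difference was not tested.

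Ngp, Ltf, Camp and Lcn2, 4 of the 5 secondary members, followed a maturation measure that used no member. Each cell was scored by log2 of the UMIs of 4 late genes (Cxcr2, Csf3r, Mxd1 and Btg1) over those of 8 early genes (Cebpe, Hmgb2, Hmgn2, Tuba1b, Tubb5, H2afz, Stmn1 and Dut), each plus 1, and EBA blood was cut into an early, a middle and a late range of 293 cells. The ranges largely repeat the division by cluster and are not separate support for it: 244 early cells were in cluster 2 and 246 late cells in cluster 3. The part of Pf4 or Ppbp UMIs in the ranges was not tested either. From early to late Ngp fell from 25611 to 6722 to 3104 CPM, Ltf from 6013 to 1486 to 665 CPM and Camp from 17278 to 2894 to 859.7 CPM. Lcn2 went from 20201 to 10994 to 8326 CPM and Prtn3 from 15.3 to 10.8 to 7.95 CPM. In contrast Mmp8 went from 1551 to 2192 to 2259 CPM and Mmp9 from 1475 to 1649 to 1695 CPM. Camp thus had the steepest fall, and Mmp8 and Mmp9 were highest in the late range as CPM, an order that Mmp9 did not keep relative to the median gene.

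The early over late ratio was 20.1 (19.3 to 21.0) for Camp, 9.04 (8.61 to 9.49) for Ltf, 8.25 (8.07 to 8.44) for Ngp and 2.43 (2.39 to 2.46) for Lcn2. These 4 of 7 measured members were called higher and 0 lower, against 4.78% of 4852 genes higher and 23.7% lower (median log2 ratio -0.45). Prtn3 at 1.92 (1.14 to 3.34), Mmp8 at 0.686 and Mmp9 at 0.870 were not called; relative to the median gene Prtn3 at 2.62 made 5 higher (background 10.5% higher and 12% lower) and Mmp9 turned to 1.19. Median depth was 12018, 8391 and 6614 UMIs from early to late, and 57, 157 and 90 cells lay within 0.25 of a limit. By the same limits 5, 45 and 407 cells of IgG blood were early, middle and late. In its late range IgG blood held 3.64 CPM of Ngp and 2400.1 CPM of Mmp9. Of 12 other secondary genes 6 were higher in the early range and 0 lower (median 1.07), with Orm1, an acute phase protein, at 21.2 (11.7 to 42.9) and Chil3 at 15.8 (14.6 to 17.1). Of 7 measured primary genes 4 were higher and 1 lower, with Fcnb, a ficolin, at 22.7 (7.54 to 112) and Srgn at 0.204 (0.194 to 0.215).

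Between single cells of EBA blood thinned to 500 UMIs, Spearman's rho was 0.83 for Ngp with Camp, 0.83 for Ltf with Camp and 0.79 for Ngp with Ltf, over 879 cells that share 1 library. It was 0.69 for Ngp with Lcn2, 0.09 for Ngp with Mmp8, 0.13 for Ngp with Mmp9 and 0.17 for Mmp8 with Mmp9. Of 297 cells with Ltf 293 also had Ngp, and of 341 with Camp 334 did, whereas 491 cells had Ngp. Nearly all cells with Ltf or Camp thus had Ngp, but not the converse. Ngp was also the more abundant, at 12819 CPM against 2959.8 CPM of Ltf and 7735 CPM of Camp. It is therefore more readily found at 500 UMIs, and the part of abundance in this asymmetry was not tested. The values for Mmp8 and Mmp9 are too weak to read.

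**Figure D4:**
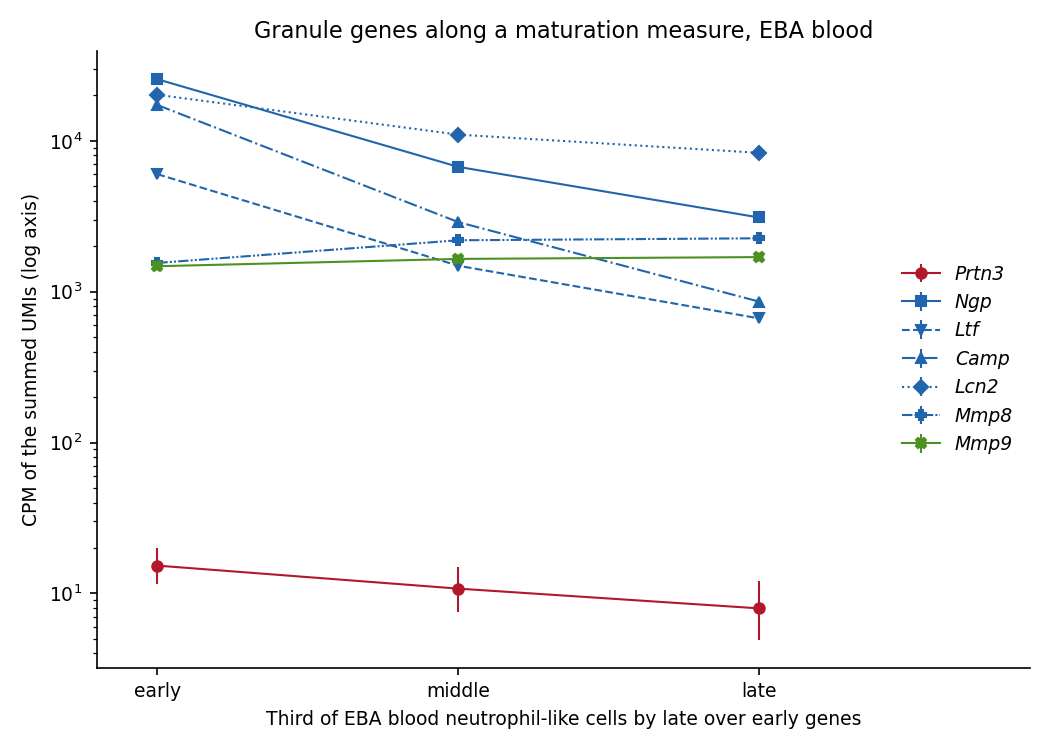
Level (CPM, log axis) of granule genes in the early, middle and late range of EBA blood neutrophil-like cells (293 cells each), with 95% Poisson intervals. Camp falls from 17278 to 859.7 CPM while Mmp9 goes from 1475 to 1695 CPM.

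The barcodes named classical monocyte-like in EBA blood held both primary and secondary transcripts, and 223 of the 292 also held a UMI of Ly6g or Cxcr2, surface proteins of neutrophils. Whether those are droplets with more than 1 cell was not settled, so their secondary levels cannot be assigned to monocytes. Cluster 6 held the classical monocyte-like cells, 116 in IgG blood and 292 in EBA blood, and Prtn3 and Mmp8 were among its leading genes without having been used to build it. In them Prtn3 stood at 17.3 CPM (10.8 to 26.2) in IgG blood and 184 CPM (175 to 193) in EBA blood. Elane had 0 UMIs in IgG blood and 30.4 CPM (26.9 to 34.3) in EBA blood, and Mpo 0 UMIs and 6.401 CPM (4.83 to 8.31). Ctsg stood at 4.71 CPM (1.73 to 10.3) and 10.4 CPM (8.37 to 12.8). The primary levels in EBA blood exceeded those of neutrophil-like cells of the same library. Ngp, Ltf and Camp had 0 UMIs in IgG blood, which allows up to 2.36 CPM, and 3190.1, 826 and 1636 CPM in EBA blood. Lcn2 stood at 58.9 and 5120.4 CPM, Mmp8 at 82.5 and 1389.5 CPM and Mmp9 at 164 and 858 CPM. Per cell, Prtn3 was found in 12.1% of classical monocyte-like cells of IgG blood and 77.1% of those of EBA blood, or 1.72% (0.209% to 6.09%) and 6.85% (4.23% to 10.4%) after thinning, against 0.125% and 0% (0% to 0.461%) of B cell-like cells of EBA blood. Ngp was found in 67.1% of classical monocyte-like cells of EBA blood, or 33.6% (28.2% to 39.3%) after thinning, against 4.63% of B cell-like cells, or 2 of 799 after thinning, and in 0% (0% to 3.13%) of classical monocyte-like cells of IgG blood. Lcn2 was found in 16.4% of those of IgG blood and 89.7% of those of EBA blood, or 2.59% and 68.2% after thinning. Elane was found in 17.1% of classical monocyte-like cells of EBA blood, or 1.03% (0.212% to 2.97%) after thinning. Nonclassical monocyte-like cells (141 and 45, cluster 8) had no UMI of a primary member and at most 24.3 CPM of any other.

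Classical cells were 116 of 257 monocyte-like cells in IgG blood and 292 of 337 in EBA blood, so a ratio over both classes also carries this shift. Over both monocyte classes the ratio of EBA to IgG blood was 131 (106 to 165) for Lcn2, 25.9 (21.6 to 31.5) for Mmp8, 17.8 (11.7 to 28.4) for Prtn3, 7.90 (6.93 to 9.04) for Mmp9 and 3.69 (1.63 to 10.3) for Ctsg. Against 3 counts in IgG blood, Ngp was at least 2262-fold, Camp at least 1161-fold, Ltf at least 586-fold and Elane at least 21.6-fold higher, with exact lower limits of 1839.9, 944, 476 and 17.4. All 9 measured members were called higher, against 6.88% of 7586 genes higher and 18.5% lower (median log2 ratio -0.49), and 9 also relative to the median gene (11.1% higher, 6.53% lower). The call of Ctsg was lost with cells named by marker UMIs alone, without barcodes with Pf4 or Ppbp UMIs and without the 1% of cells with most UMIs of it. In classical cells alone the ratios were smaller, 86.9 (69.3 to 111) for Lcn2, 16.8 (13.9 to 20.6) for Mmp8, 10.6 (6.99 to 17.0) for Prtn3 and 5.22 (4.55 to 6.02) for Mmp9, and against 3 counts Ngp was at least 1354-fold, Camp at least 694-fold, Ltf at least 350.4-fold and Elane at least 12.9-fold higher (exact lower limits 1101, 565, 285 and 10.4). There 8 of 9 were higher, against 6.39% of genes higher and 16.4% lower, with Ctsg at 2.21 (0.976 to 6.17) not called; relative to the median gene it was 9, against 10.4% and 6.53%. In nonclassical cells neither of the 2 measured members was called, Lcn2 at 2.10 (0.462 to 7.82) and Mmp9 with 0 UMIs in EBA blood, against 2.44% of genes higher and 2.89% lower (2.78% and 2.54% relative to the median gene). Over both monocyte classes, 8 of 11 other secondary genes were higher and 1 lower (median log2 ratio 1.64). Of primary genes 4 of 9 were higher and 1 lower (median 0.82), and of 7 tertiary and secretory genes 5 and 0 (median 2.47). The background of these counts is 6.88% of genes higher and 18.5% lower (median -0.49).

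Neutrophil markers moved with this result. The 9 markers summed to 8492 CPM in classical monocyte-like cells of IgG blood and 167777 CPM in those of EBA blood, and the classical monocyte markers to 4506 and 2314 CPM. Median depth was 10200.5 and 23020.5 UMIs, and Pf4 or Ppbp was found in 85.3% and 97.3% of cells. The cells were therefore divided, after these values were seen, by a UMI of Ly6g or Cxcr2.

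The secondary and tertiary members were higher in the cells with such a UMI. In EBA blood 223 cells had such a UMI (median depth 27754) and 69 had none (median depth 13905). Ngp stood at 3621 CPM with and 13.4 CPM without it, Ltf at 938 and 1.91 CPM, Camp at 1858 and 4.78 CPM and Mmp9 at 974 and 2.87 CPM. Lcn2 stood at 5728 and 640.2 CPM and Mmp8 at 1539 and 290.0 CPM. Prtn3, Elane and Ctsg had the opposite order, Prtn3 at 154 CPM with and 402 CPM without, Elane at 22.2 and 90.9 CPM and Ctsg at 9.09 and 20.1 CPM. Mpo stood at 5.84 and 10.5 CPM, with overlapping intervals. The shares of cells were close: Prtn3 was found in 77.1% with and 76.8% without, Elane in 17.5% and 15.9%, Ctsg in 8.07% and 10.1% and Mpo in 6.73% and 4.35%. The Elane level without thus rests on 95 UMIs in few cells. For comparison, B cell-like cells of EBA blood held 11.9 CPM of Ngp and 13.9 CPM of Lcn2.

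Cells without such a UMI also differed between the cohorts, in the members and in a neutrophil transcript. S100a9, an abundant calcium-binding protein of neutrophils, stood at 529 CPM in those of EBA blood and 19.96 CPM in those of IgG blood, and its part in the values that follow was not tested. Against 88 cells of IgG blood, the ratio was 115 (49.2 to 357) for Lcn2, 18.1 (11.6 to 29.98) for Prtn3, 4.36 (3.29 to 5.85) for Mmp8 and 3.02 (1.18 to 9.15) for Ctsg. Elane was at least 27.3-fold, Ngp at least 4.03-fold and Mpo at least 3.16-fold higher, again against 3 counts, and the exact lower limits were 21.8, 2.86 and 2.17. All 7 measured members were called higher, against 4.4% of 7430 genes higher and 9.31% lower (median log2 ratio -0.14); relative to the median gene it was also 7, against 6.07% and 6.78%. The level of Ngp, from 14 UMIs, was 13.4 CPM (7.32 to 22.5) and overlapped that of B cell-like cells of the same library, 11.9 CPM (8.52 to 16.1), so it is not above the background there. Ltf, Camp and Mmp9 fell below the minimum. Of other primary genes 2 of 9 were higher and 1 lower, with Fcnb at 33.5 CPM in EBA and 3.33 CPM in IgG blood, a ratio of 10.1 (3.17 to 51.2).

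**Figure D5:**
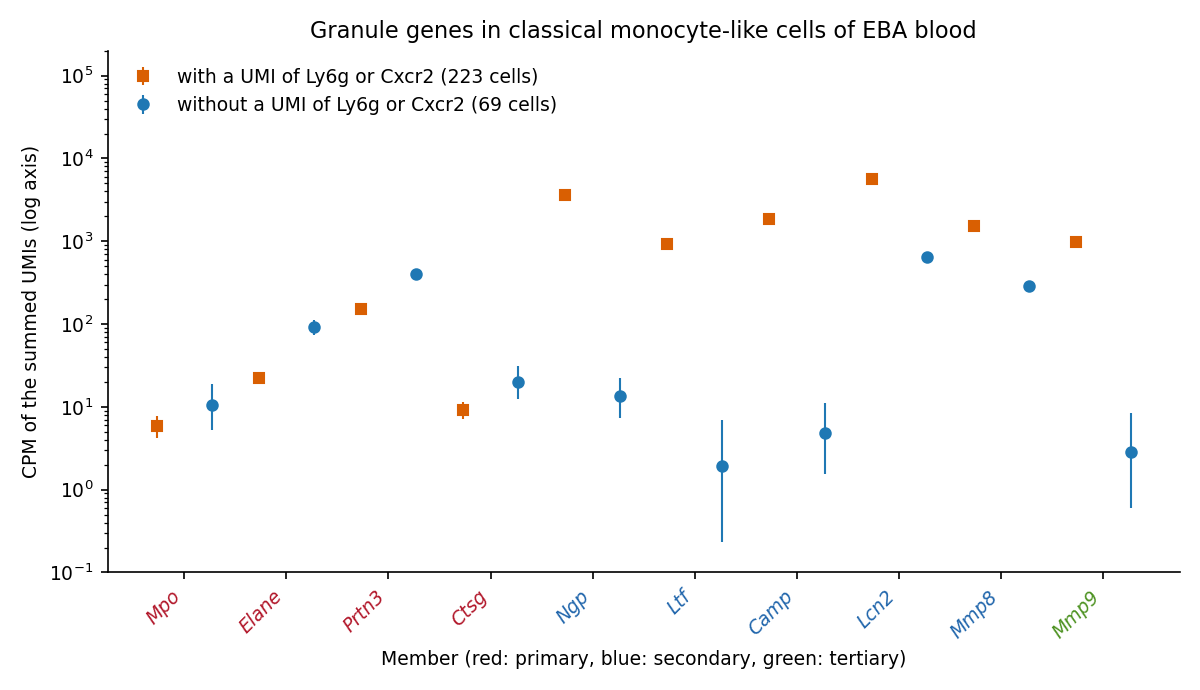
Level (CPM, log axis) of each granule gene in classical monocyte-like cells of EBA blood with (223 cells) and without (69 cells) a UMI of Ly6g or Cxcr2, with 95% Poisson intervals. Elane is higher without such a UMI (90.9 against 22.2 CPM) and Ngp higher with it (3621 against 13.4 CPM).

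Mpo, Elane and Ctsg were concentrated in few of these cells. Of 427 UMIs of the 3 genes in EBA blood, 413 lay in classical monocyte-like cells, where 69 cells had 1 or more and 11 had 5 or more. In these 11 cells Prtn3 ranged from 18 to 125 UMIs and Elane from 4 to 73, while Ltf was 0, Camp at most 1 and Ngp at most 27. The cell richest in Elane held 29 Mpo, 73 Elane, 125 Prtn3 and 45 Ctsg UMIs, with 49 of Mki67 and 41 of Top2a, genes of dividing cells. Mki67 or Top2a was found in 7 of the 11 cells, 17 of the 58 with 1 to 4 such UMIs and 33 of the 223 with none, at median depths of 32903, 31209 and 20847 UMIs. The summed level of Ngp, Ltf and Camp in these ranges was 93.0, 4193 and 6628 CPM. The cells richest in primary transcripts thus held the least Ngp, Ltf and Camp. A UMI of Ly6g or Cxcr2 was found in 5, 48 and 170 cells of the same ranges, and its part in this was not tested. Lcn2 stood at 2265, 4871 and 5427 CPM, with 99, 115.5 and 76 UMIs in the median cell. Mmp8 stood at 608, 1388 and 1447 CPM, with 24, 33 and 24 UMIs in the median cell. The list of cycling or progenitor granulocyte markers holds Mki67 and Top2a, given above, and Kit, Cd34, Gfi1 and Myb. Kit was at most 4 UMIs and Cd34 was 0 in the 11 cells, and Gfi1 and Myb are not given here. Ms4a3, of the list of other primary granule genes, reached 10 UMIs in 1 of the 11. Whether these cells are progenitors was not tested.

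Within EBA blood, neutrophil-like over monocyte-like ratios were 4.84 (4.76 to 4.93) for Camp, 4.12 (4.06 to 4.17) for Ngp, 3.67 (3.58 to 3.77) for Ltf and 2.74 (2.72 to 2.77) for Lcn2. They were below 1 for the primary genes, 0.0105 (0.00216 to 0.0311) for Elane, 0.0308 (0.00624 to 0.0930) for Ctsg and 0.0652 (0.0533 to 0.0790) for Prtn3. Mmp9 at 1.91 and Mmp8 at 1.45 were not called. That made 4 higher and 3 lower of 9 measured, against 1.25% of 6488 genes higher and 42.2% lower (median log2 ratio -0.79). Relative to the median gene 6 were higher and 3 lower, against 9.56% and 21.8%. Without barcodes with Pf4 or Ppbp UMIs the number lower was 1. That step left few classical monocyte-like cells, since 97.3% of those in EBA blood held such a UMI, against 57.8% of nonclassical ones. It therefore cannot show whether the primary levels depend on platelet transcripts. Of the 337 monocyte-like cells 223 held a UMI of Ly6g or Cxcr2, so the secondary and tertiary ratios cannot be assigned to monocytes. The 114 without one held 13.5 CPM of Ngp, 2.38 of Ltf, 3.96 of Camp and 534 of Lcn2. They held 241 CPM of Mmp8, 2.38 of Mmp9 and 333 of Prtn3. In IgG blood the ratio of neutrophil-like to monocyte-like cells was 22.3 (19.5 to 25.7) for Mmp9 and 21.5 (17.2 to 27.2) for Lcn2. It was 8.23 (6.71 to 10.2) for Mmp8 and 0.486 (0.161 to 1.24) for Prtn3. There 3 of 4 measured members were higher and 0 lower, against 17.2% of 7801 genes higher and 35.3% lower, and relative to the median gene also 3, against 24.4% and 26.5%.

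Over 41 pools of cell class and library, on log2(CPM + 10), the genes most like the summed primary members among 14141 were the members Prtn3 (Pearson's r 0.83) and Ctsg (0.73), and Mcpt8 (0.82), Spink2 (0.82) and Prss34 (0.74). Mcpt8 and Prss34 encode basophil proteases. No pool of basophil-like cells was among the 41, and Mcpt8 and Prss34 held 223 and 227 UMIs over these pools. Those most like the sum of Ngp, Ltf and Camp, after these 3, were Ly6g (0.94) and Gm29264 (0.94). Pools of a library share its preparation and depth.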

How the data were processed

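The authors deposited 1 matrix of raw UMI counts per library, from droplet 3′ single-cell RNA. Per the submitters' processing notes Cell Ranger 3.0.0, Seurat 3.0.0 and 3.1.0 and mm10 were used; how barcodes were filtered is not given in the sources used here. Libraries held 22705634 (blood) and 90829463 (skin) UMIs in IgG mice, and 37508438 (blood) and 81861688 (skin) in EBA mice. The members and lists were chosen with earlier results of these data known.

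Scrublet in scanpy 1.11.5 scored doublets, and the highest-scoring 0.8% for each 1000 barcodes of a library were removed. Clustering used 2000 variable genes, 30 principal components, 15 neighbours and Leiden resolution 1, giving 34 clusters. Counts were summed per class and library and scaled to CPM. With 1 library a group no test was made; intervals (95%) and limits (3 counts) cover counting error only. The calls were tested on simulated counts with 4-fold changes in 200 genes, of which 97% were called rightly, with 1.05% of unchanged genes called. The simulation held counting error only, so it cannot check for differences between library preparations. Positions are from GENCODE M21 (GRCm38). All members were named, with up to 4 other granule genes per direction whose nearer interval bound lay farthest from 1, and the 5 most like genes. Alternatives covered the filters, doublets, naming, resolution, scaling, averaging over cells, free RNA, platelet UMIs, thinning depth and, chosen after seeing the data, barcodes with UMIs of the other class and the 1% of cells with most UMIs of a gene.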

Additional observations from a re-analysis of the deposited data

Results flagged for a closer look

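Some members stood higher in barcodes left out of the comparisons than in the same kind of barcodes of the matching IgG library. In EBA blood, barcodes with under 200 genes held 28.5 CPM of Ngp, 7.62 CPM of Ltf, 11.5 CPM of Camp and 20.9 CPM of Lcn2, and those of IgG blood had none. Barcodes of EBA blood with over 10% mitochondrial UMIs held 79.1 CPM of Lcn2, and those of IgG blood none, while Mmp9 stood at 16.6 CPM in EBA and 35.5 CPM in IgG blood. In EBA skin such barcodes held 149 CPM of Lcn2 (4.17 in IgG skin), 12.1 CPM of Mmp9 (1.47), 8.99 CPM of Mmp8 (0.245) and 5.65 CPM of Ngp (0.245). Barcodes with a high doublet score held more. In EBA blood these held 2387 CPM of Ngp (0 in IgG blood), 1550.1 CPM of Camp (0), 657 CPM of Ltf (0.752), 2836 CPM of Lcn2 (39.8) and 449 CPM of Mmp8 (29.3). In EBA skin they held 323 CPM of Lcn2 (1.86 in IgG skin), 44.7 CPM of Mmp8 (0), 41.4 CPM of Mmp9 (1.12), 21.8 CPM of Ngp (0) and 3.86 CPM of Prtn3 (0.559).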

How the results depend on the processing

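Of 37 calls of members over 6 comparisons, all 37 were kept without doublet removal, without the minimum of UMIs and CPM, with free RNA subtracted, with the mean of each cell's CPM and relative to the median gene. With a mitochondrial limit of 5% or 20%, a minimum of 500 genes or Leiden resolution 0.5, 36 were kept, and the one lost was Prtn3 between EBA and IgG blood neutrophil-like cells. Naming cells by marker UMIs alone kept 35 and lost Ctsg in both comparisons with monocyte-like cells of EBA blood. Without blood barcodes with Pf4 or Ppbp UMIs 30 of 35 were kept, with fewer cells and UMIs left. The members lower in EBA blood neutrophil-like than monocyte-like cells went from 3 to 1. Such UMIs were in 97.3% of classical monocyte-like cells of EBA blood, so few of those were left. Prtn3 between EBA and IgG blood neutrophil-like cells fell below the minimum, so its log2 ratio of -1.16 is not read as a change of direction. Without barcodes with UMIs of the other class 33 were kept, Ltf, Camp and Mmp9 in monocyte-like cells among those lost. Without the 1% of cells with most UMIs of a gene 32 were kept. Sizes changed more than calls: of 42 log2 ratios 30 left their main interval with cells named by marker UMIs alone, 20 with the mean of each cell's CPM, 25 relative to the median gene, 22 without barcodes with UMIs of the other class and 22 without the top 1% of cells, and of 39 30 did without Pf4 or Ppbp barcodes. In skin the values subtracted as free RNA were those of keratinocyte-like cells. No paired analysis was possible because each group is 1 library. Depth limits the primary genes in neutrophil-like cells, where 3 counts are 2.45 CPM in IgG blood.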

Other observations

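Lcn2 was also measured in skin cells that are not neutrophil-like. In chondrocyte-like cells it stood at 66.8 CPM (54.1 to 81.7) in IgG skin and 1056 CPM (1013 to 1100.2) in EBA skin, where 4 of 148 cells held 0.5 of the UMIs. In hair follicle- or sebaceous-like cells it stood at 56.2 and 353 CPM, in fibroblast-like cells at 2.54 and 64.0 CPM and in keratinocyte-like cells at 7.96 and 49.0 CPM. Lymphatic endothelial-like cells held 434 CPM (372 to 503) and 435 CPM (388 to 487), with overlapping intervals. Neutrophil markers summed to 1856 and 3255 CPM in chondrocyte-like, 4.04 and 316 CPM in hair follicle- or sebaceous-like, 250.2 and 457 CPM in fibroblast-like and 184 and 4382 CPM in keratinocyte-like cells of IgG and EBA skin, and their part in these values was not tested.

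Macrophage-like cells held 0.991 CPM of Mmp8 in IgG skin, from 1 UMI, and 63.4 CPM (56.8 to 70.7) in EBA skin, beside neutrophil markers of 54.5 and 1781 CPM. Langerhans-like cells held 39.5 CPM (26.8 to 56.0) of Mmp9 in IgG skin and 14.1 CPM (8.60 to 21.7) in EBA skin. Ctsg was found in mast-like cells of EBA skin at 85.0 CPM (36.7 to 168), from 8 UMIs in 41 cells. It was also found in those of IgG skin, where 12 cells held 10 UMIs of Mpo, Elane and Ctsg together and 1 cell held 9 of Ctsg.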
